A study of Homo sapiens with 6 samples.

Results

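The genes described here are 50 cell cycle genes, chosen by name and not by their values: 20 genes of DNA replication and the G1/S transition (replication genes) and 30 genes of mitosis and the G2/M transition (mitotic genes), of 60649 genes in the count table. Each was matched to its Ensembl identifier through GENCODE release 44, and all 50 passed the filter on low counts. RNA was sequenced after poly(A) selection from OVCAR5 cells, a human cell line established from an ovarian cancer. A METTL3 group of 3 libraries came from cells transduced with lentivirus carrying METTL3, which encodes the methyltransferase that writes m6A on mRNA, and a vector group of 3 libraries came from cells transduced with the empty vector. Both groups were puromycin-selected stable lines, the labels name no cisplatin for either, and the series' design text calls the control samples parental. Nothing in the labels says that the replicates of a group were separate transductions or cultures, so p-values measure only the spread between these libraries, which may be technical. The labels give a stranded TruSeq kit and paired-end reads, and the study's methods give a different kit and single-end reads.

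The cell cycle transcribes its genes in waves. When cyclin E and its kinase inactivate the RB proteins, E2F factors are freed and switch on genes for origin licensing, nucleotide synthesis and the replication fork, and these transcripts are highest near S phase. Later, B-MYB (MYBL2) and FOXM1 act with the MuvB complex at CHR elements and, together with NF-Y at CCAAT boxes, switch on genes for mitotic entry, the spindle and chromosome segregation, whose transcripts are highest in G2 and mitosis.

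The promoters of the 2 gene groups carry these different elements. RefSeq promoter windows of GRCh38.p14, from 250 bases before to 50 bases after the transcription start, matched 17 of the 20 replication genes and 24 of the 30 mitotic genes. Both strands were searched, and a gene with more than 1 window counted as holding a motif if any of its windows held it. An E2F site was any of 4 words, the first of them TTGGCGC. The second word was TTCGCGC. The third was TTCCCGC, and the last word searched for was TTGCCGC. Such a site was found for 16 of 17 replication genes (94.1%), for 6 of 24 mitotic genes (25.0%) and for 15.3% of all 27305 genes listed. CHR elements, spelled TTTGAA or with another central base as TTTAAA, had the reverse distribution, with 4 of 17 (23.5%), 20 of 24 (83.3%) and 27.9%. The CCAAT box (CCAAT), which can overlap an E2F site by its reverse complement, was in 12 of 17 (70.6%), 21 of 24 (87.5%) and 39.7%. CCNE1 was the matched replication gene with none of the 4 E2F words, and MYBL2 was the matched mitotic gene with no word of the 3 motifs. Sites of other spellings were not searched for. The following stretches, each 5′ to 3′ on the gene's own strand, are from replication genes in which the libraries differed clearly, with E2F sites in capitals, and from mitotic genes that were low in METTL3 replicate 1 and high in vector replicate 1, with CHR and CCAAT in capitals. Among the mitotic genes shown, only CCNB2 was still called higher in that vector library when trends of GC content and transcript length were removed.
PCNA (chr20:5126627-5126712, minus strand): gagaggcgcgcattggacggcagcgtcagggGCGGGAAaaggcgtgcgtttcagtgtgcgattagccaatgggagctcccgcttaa
MCM6 (chr2:135876444-135876603, minus strand): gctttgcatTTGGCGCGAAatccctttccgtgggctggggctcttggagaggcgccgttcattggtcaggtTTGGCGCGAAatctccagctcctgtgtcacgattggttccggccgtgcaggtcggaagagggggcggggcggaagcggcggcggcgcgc
CDC25A (chr3:48188418-48188507, minus strand): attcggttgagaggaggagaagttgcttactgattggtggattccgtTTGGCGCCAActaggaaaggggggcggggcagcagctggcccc
CCNB1 (chr5:69167055-69167134, plus strand): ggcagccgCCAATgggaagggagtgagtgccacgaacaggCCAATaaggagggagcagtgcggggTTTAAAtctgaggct
CCNB2 (chr15:59105051-59105125, plus strand): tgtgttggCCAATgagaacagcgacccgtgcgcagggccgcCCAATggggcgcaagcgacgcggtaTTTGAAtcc
PTTG1 (chr5:160421765-160421854, plus strand): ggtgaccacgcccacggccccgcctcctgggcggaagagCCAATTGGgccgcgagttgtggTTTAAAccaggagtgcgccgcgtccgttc
CKS2 (chr9:89311105-89311194, plus strand): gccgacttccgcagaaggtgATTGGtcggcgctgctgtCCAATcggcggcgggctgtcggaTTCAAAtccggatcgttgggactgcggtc

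**Figure D1:**
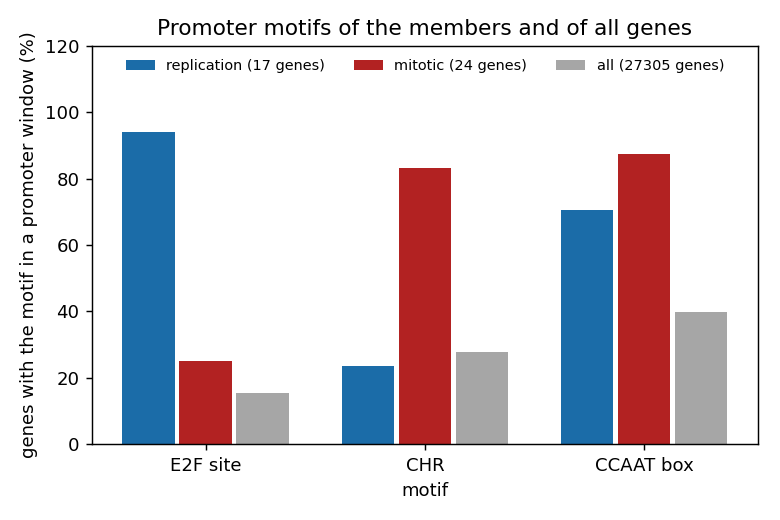
Share of genes (percent, vertical axis) with an E2F site, a CHR element or a CCAAT box on either strand in any of their promoter windows, for 17 replication genes, 24 mitotic genes and all 27305 genes with a window. E2F sites are found for 94.1% of these replication genes, and CHR elements for 83.3% of these mitotic genes.

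The libraries held from 96633925 to 125463386 counts, and differences in depth between the groups were small. METTL3 itself was at 152, 165 and 175 CPM (counts per 1e6 on TMM-scaled library sizes) in METTL3 replicates 1 to 3 and at 80.6, 68.6 and 71.6 CPM in vector replicates 1 to 3. The groups did not overlap, and the log2 difference was 1.16 (SE 0.117; edgeR's quasi-likelihood test, adjusted p = 0.072). In each group, replicate 1 stood apart from replicates 2 and 3 across the transcriptome, so results are given on all 6 libraries, on replicates 2 and 3 alone, and as the shift of replicate 1 within each group. Of 10 epithelial markers, 9 reached 1 CPM in some library and WT1 stayed below it in all. Of the markers of other cell types, 7 of 9 for fibroblasts, 7 of 9 for leukocytes and 4 of 6 for endothelium were below 1 CPM in every library.

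The 50 genes were well expressed. In TPM, a unit that takes account of transcript length, the mean over the 6 libraries ranged in the replication genes from 8.97 for E2F2 to 615 for PCNA, the sliding clamp of DNA polymerase, with a median of 118.5. Among the mitotic genes it ranged from 0.596 for NUSAP1, a spindle-associated protein, to 579 for TOP2A, the topoisomerase that untangles sister chromatids, with a median of 180.5. NUSAP1 was the only gene of the 50 with a mean below 1 CPM, and 86.8% of its exonic bases overlap exons of other genes on the same strand, so its reads may have been assigned to none or to another gene. CCNE2, MCM2, TYMS, PLK1, BUB1B and FOXM1 also share over 10% of their exonic bases with another gene. The annotation lists 7 pseudogenes named after CKS1B, 5 after UBE2C, 3 each after PCNA and RRM2 and 2 each after TYMS and AURKA, whose near-identical reads may be split between copies, so these levels are less certain.

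Over all 6 libraries, none of the 50 cell cycle genes passed the test of METTL3 against vector, and most mitotic genes had lower values with METTL3. Of 22038 genes tested, edgeR's quasi-likelihood test called 0 at an adjusted p under 0.05 (0%) and 1830 at an unadjusted p under 0.05 (8.3%). Of the 50 cell cycle genes, 0 were called and 1, MCM5, had an unadjusted p under 0.05; DESeq2 called 283 genes, 0 of them among the 50. The replication genes were split, with 9 higher and 11 lower with METTL3 and a median log2 difference of -0.03. Of the mitotic genes, 25 of 30 had lower values with METTL3, with a median of -0.16, where all tested genes had a median of -0.02 and 52.7% of them were below 0. As these are bulk samples, fewer cells in a phase of the cycle cannot be told apart from less RNA per cell.

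The mitotic median rested on METTL3 replicate 1. Summed over the 30 mitotic genes, the level was 4580, 6520 and 6430 CPM in METTL3 replicates 1 to 3 and 6550, 6150 and 6280 CPM in vector replicates 1 to 3, or 5840 ± 1100 against 6330 ± 205 CPM (mean ± SD, n = 3 each). Summed over the 20 replication genes, it was 3020, 3550 and 3570 CPM with METTL3 and 3770, 3340 and 3340 CPM with the vector, or 3380 ± 311 against 3480 ± 249 CPM (mean ± SD, n = 3 each). METTL3 replicate 1 was the lowest library in both sums, and vector replicate 1 the highest in the replication sum, also when scaled by total counts or by DESeq2 size factors. In the mitotic sum vector replicate 1 was the highest with TMM scaling only, since METTL3 replicate 2 was above it by total counts (6440 against 6430 CPM) and by DESeq2 size factors (6580 against 6360 CPM). Without METTL3 replicate 1 the medians of the log2 differences were 0.07 for replication and 0.03 for mitotic genes, and without vector replicate 1 the replication median was 0.02, so each of these turned direction.

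**Figure D2:**
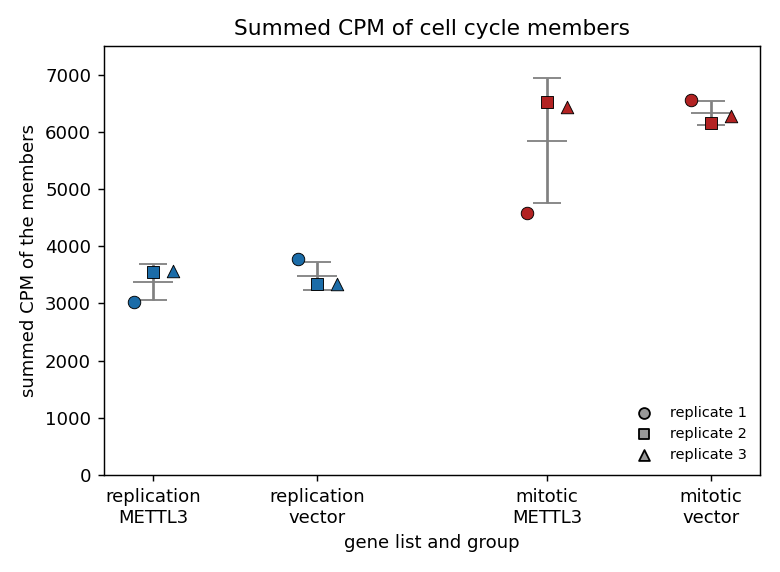
Summed CPM (vertical axis) of the 20 replication genes and the 30 mitotic genes in each library, with symbols for replicates 1, 2 and 3 and lines for the mean ± SD of 3 libraries. METTL3 replicate 1 is the lowest library in both sums (3020 and 4580 CPM), and vector replicate 1 is the highest in the replication sum (3770 CPM), whereas its mitotic sum (6550 CPM) is the highest with this TMM scaling but not by total counts or DESeq2 size factors.

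Within the METTL3 group, replicate 1 was low in nearly all mitotic genes. The shift of replicate 1 is its level minus that of replicates 2 and 3 of its group, on the log2 scale, and it compares 1 library with 2, with the spread taken from replicates 2 and 3 of both groups (2 residual degrees of freedom). By edgeR's quasi-likelihood test of this shift, 26.8% of all tested genes were called, 15% lower and 11.8% higher. Of the mitotic genes, 28 of 30 were called lower and 0 higher, with a median shift of -0.58, and MKI67 and NUSAP1 were the others. Of the replication genes, 11 of 20 were called lower and 0 higher, with a median shift of -0.20, and the median over all genes was 0.01. With upper-quartile scaling, under which 3388 genes of the whole table were called higher and 2343 lower in place of 2593 and 3307, 26 mitotic and 8 replication genes were called lower.

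Vector replicate 1 had no such common direction. Here 41.6% of all genes were called by the same test, 21.1% higher and 20.5% lower. Of the replication genes 10 were called higher and 4 lower, with a median shift of 0.18, and of the mitotic genes 11 were called higher and 7 lower, with a median shift of 0.07, where all genes had a median of 0.06. The replication genes called higher were led by PCNA, GINS2 and MCM6, and those called lower were UHRF1, E2F1, RRM2 and CDT1. The mitotic genes called lower were FOXM1, AURKB, CDC25B, PLK1, CDC20, MYBL2 and CENPA.

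Opposite movement of the replicate 1 libraries was therefore frequent but not general. METTL3 replicate 1 was below and vector replicate 1 above both other libraries of its group in 13 of 20 replication genes and 18 of 30 mitotic genes, against 16.1% of all tested genes, and the reverse arrangement was seen in 0 and 1, against 13.1%. Both shifts were called, METTL3 down and vector up, in 5 replication and 11 mitotic genes, against 3.21% of all genes. Both were called down in 3 replication genes (RRM2, UHRF1 and CDT1) and in 7 mitotic genes, which were those named above as lower in vector replicate 1, against 6.86% of all genes. METTL3 replicate 1 was the lowest of the 6 libraries in 10 of 20 replication and 25 of 30 mitotic genes, against 23.6% of all genes. The genes with a called METTL3 shift down and a called vector shift up changed when the trend of GC content and length was removed. They were then CDC6, MCM3, MCM4, MCM6, MCM7, PCNA, GINS2 and CDC25A of replication, and CCNB2, CDC25C, CENPF and KIF20A of mitosis. The share over all genes was not taken for that setting.

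**Figure D3:**
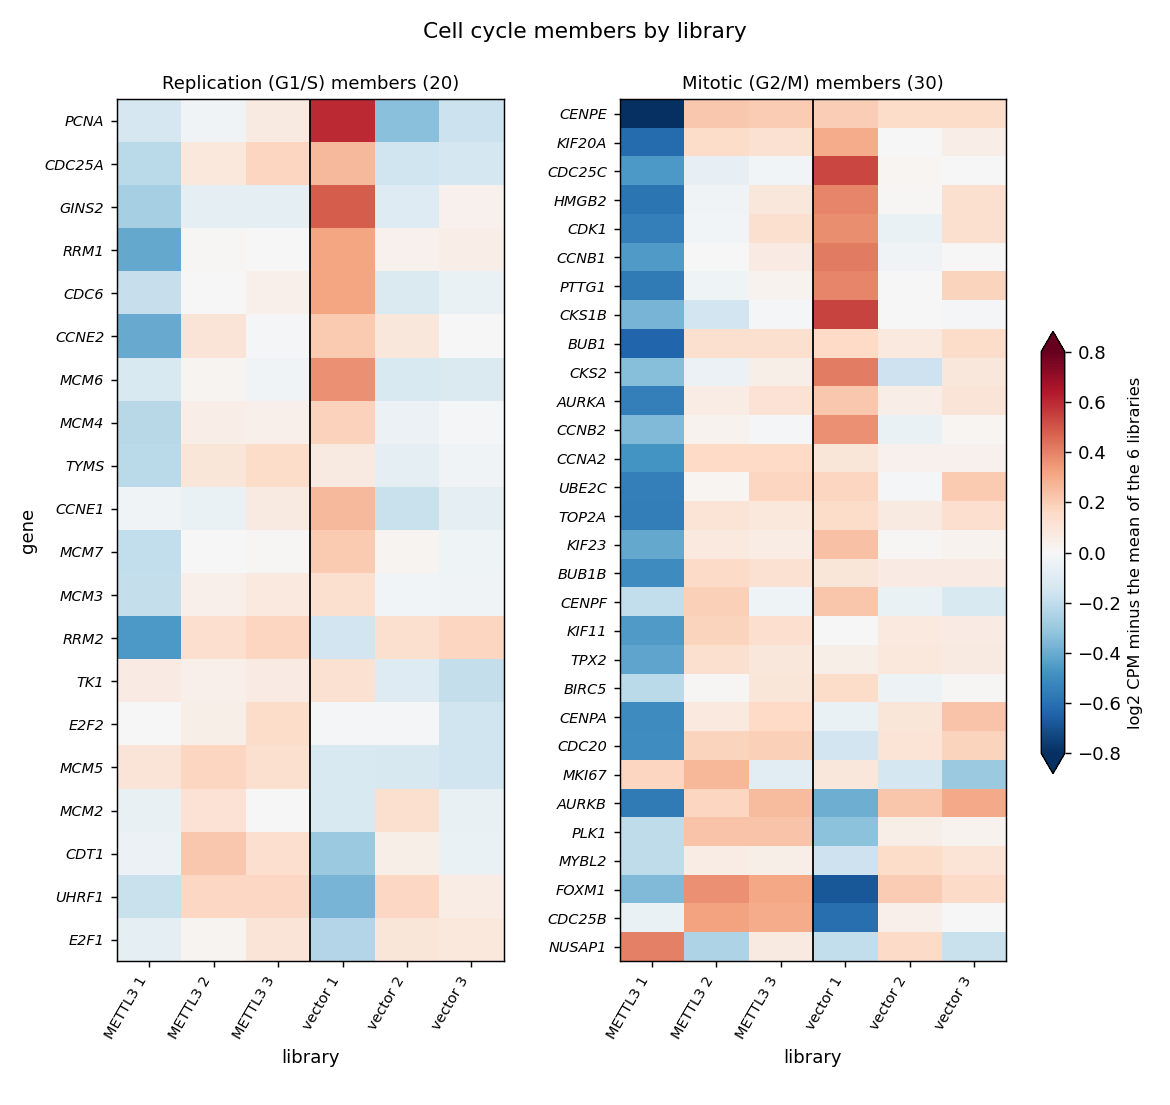
Log2 CPM of each of the 50 genes in each library minus the mean of the 6 libraries (colour, scale from -0.8 to 0.8), with replication genes on the left and mitotic genes on the right, ordered by the difference between the replicate 1 shifts. METTL3 replicate 1 is the lowest library in 25 of the 30 mitotic genes, and vector replicate 1 is high in most genes of the upper rows and low in the lowest rows.

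The difference between the shifts was tested as the interaction of group and replicate 1, which is the METTL3 shift minus the vector shift. EdgeR's quasi-likelihood test called 30.2% of all genes in this contrast, 15.5% lower and 14.7% higher. In 14 of 20 replication genes the METTL3 shift was lower than the vector shift, with 0 higher and a median of -0.42, and in 23 of 30 mitotic genes it was lower, with 1 higher and a median of -0.69, where all genes had a median of 0.00094. CDC25B was the gene called higher (0.27, SE 0.0861, adjusted p = 0.0318 from edgeR). It fell in both replicate 1 libraries, more so in the vector group, and with the trend of GC content and length removed its interaction was -0.03 (adjusted p = 0.818 from edgeR).

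**Figure D4:**
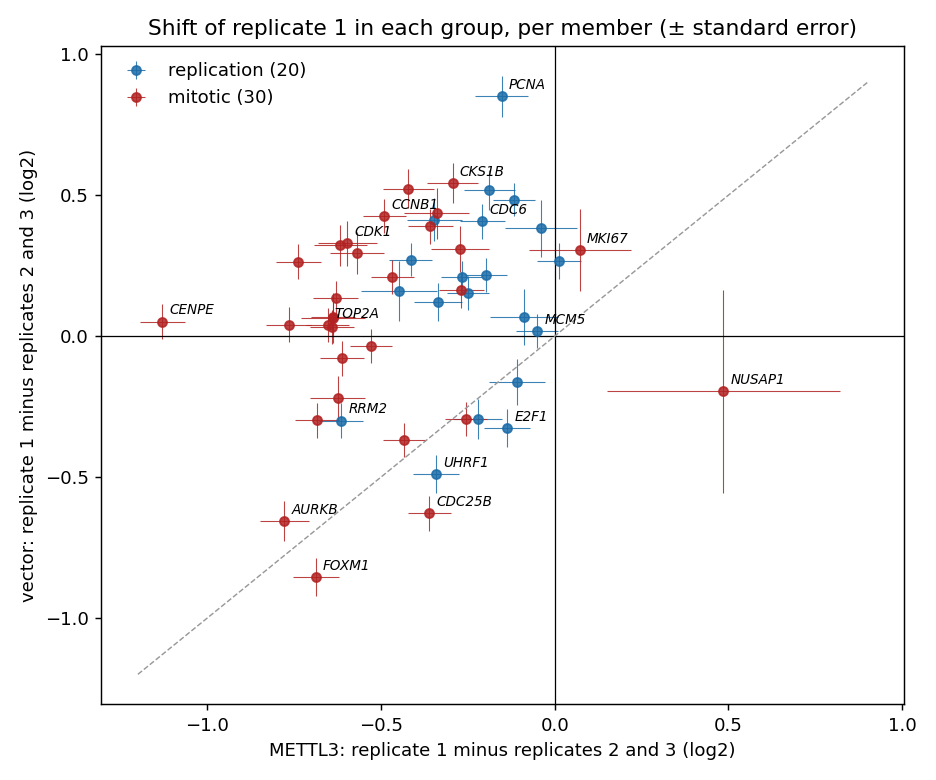
Shift of replicate 1 against replicates 2 and 3 of its group for each of the 50 genes, in the METTL3 group (horizontal axis) and in the vector group (vertical axis), log2, with bars of ± 1 standard error and a dashed line where both shifts are equal. Nearly all points lie left of 0, the upper left region holds the genes that moved in opposite directions, and FOXM1, AURKB and CDC25B lie at the lower left.

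PCNA, of the replication fork, had the interaction of largest size among the 20 replication genes. It was at 246, 264 and 283 CPM in METTL3 replicates 1 to 3 and at 408, 214 and 239 CPM in vector replicates 1 to 3. Vector replicate 1 was far above every other library, and the groups overlapped. The interaction was -1.0 (SE 0.106, adjusted p = 4.3e-05 from edgeR), most of it from the vector shift of 0.85 (SE 0.0728), whereas the METTL3 shift of -0.15 (SE 0.0752) did not pass the test. GINS2, a subunit of the GINS complex in the replicative helicase, was at 47.6, 54.1 and 54.4 CPM with METTL3 and at 79.9, 53.2 and 58.4 CPM with the vector, and its interaction was -0.71 (SE 0.103, adjusted p = 0.000271 from edgeR). RRM1, the large subunit of ribonucleotide reductase, was at 187, 250 and 249 CPM with METTL3 and at 309, 254 and 258 CPM with the vector. Its replicate 1 libraries lay on either side of the other 4, and both shifts passed, with an interaction of -0.69 (SE 0.0846, adjusted p = 9.19e-05 from edgeR). The RRM1 vector shift no longer passed with the trend of GC content and length removed (0.11, SE 0.049, adjusted p = 0.1 from edgeR). RRM2, the small and cell cycle-regulated subunit of the same enzyme, behaved differently. It was at 259, 392 and 402 CPM with METTL3 and at 321, 389 and 402 CPM with the vector. Both replicate 1 libraries were low, with shifts of -0.61 (SE 0.0622) and -0.30 (SE 0.0613), and the interaction of -0.31 (adjusted p = 0.0137 from edgeR) lost its call without METTL3 replicate 3 (-0.25, adjusted p = 0.103) or vector replicate 2 (-0.25, adjusted p = 0.0595).

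TYMS, thymidylate synthase, was at 48, 59.5 and 61.6 CPM with METTL3 and at 58.6, 52.9 and 54.7 CPM with the vector, and METTL3 replicate 1 was below all other libraries (interaction -0.46, SE 0.0962, adjusted p = 0.00284 from edgeR). Of the licensing factors, CDC6, which loads the MCM helicase onto origins, was at 146, 166 and 171 CPM with METTL3 and at 207, 153 and 160 CPM with the vector. Its interaction was -0.62 (SE 0.0892, adjusted p = 0.000249 from edgeR), and both shifts passed. As scaled by TMM, the helicase subunits were not alike. MCM3, MCM4, MCM6 and MCM7 had interactions from -0.60 (MCM6) to -0.40 (MCM3) that were called. MCM2 and MCM5 had the smallest interactions of the replication genes. MCM2 was at 134, 151 and 139 CPM with METTL3 and at 128, 152 and 134 CPM with the vector, with both replicate 1 libraries the lowest of their group. MCM5 was at 260, 273 and 265 CPM with METTL3 and at 223, 222 and 217 CPM with the vector, and its interaction was -0.07 (SE 0.0861). The MCM5 interaction was called with the trend of GC content and length removed (-0.43, SE 0.0724, adjusted p = 0.00036 from edgeR). That of MCM2 was still not called (-0.23, SE 0.0856, adjusted p = 0.0622 from edgeR).

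Of the regulators of the G1/S transition, CDC25A, CCNE1 and CCNE2 were of lower abundance than E2F1 and UHRF1. CDC25A, the phosphatase that activates CDK2, was at 22.9, 28.2 and 30 CPM with METTL3 and at 31.9, 23.8 and 24.1 CPM with the vector, so that the order of the groups in replicate 1 was the reverse of that in replicates 2 and 3 (interaction -0.76, SE 0.112, adjusted p = 0.000272 from edgeR). CCNE1, cyclin E1, was at 12.2, 12 and 13.1 CPM with METTL3 and at 14.9, 11 and 11.8 CPM with the vector. Its interaction of -0.42 (SE 0.146, adjusted p = 0.0438 from edgeR) was lost under 9 alternatives, with adjusted p from 0.0532 to 0.182. CCNE2, cyclin E2, was at 8.23, 11.7 and 10.8 CPM with METTL3 and at 12.6, 11.6 and 10.9 CPM with the vector (interaction -0.61, SE 0.152, adjusted p = 0.00809 from edgeR), and with the trend of GC content and length removed its call was lost (-0.39, adjusted p = 0.0637). E2F1, the transcription factor, was at 83.2, 88.8 and 94.1 CPM with METTL3 and at 74.3, 93.7 and 92.7 CPM with the vector. UHRF1, which reads hemimethylated DNA behind the fork, was at 117, 148 and 148 CPM with METTL3 and at 102, 148 and 138 CPM with the vector. For E2F1 and UHRF1 both replicate 1 libraries were the lowest of their group and the interaction did not pass (0.19, SE 0.0934 for E2F1 and 0.15, SE 0.0923 for UHRF1).

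Among the mitotic genes, CCNB1, CDK1 and CDC25C moved in opposite directions in the replicate 1 libraries as scaled by TMM. With the trend of GC content and length removed, the vector shift was still called for CDC25C (0.28, adjusted p = 0.00187 from edgeR) and not for CCNB1 or CDK1. CCNB1, cyclin B1, was at 203, 278 and 291 CPM with METTL3 and at 370, 273 and 278 CPM with the vector. CDK1, its kinase, was at 102, 147 and 163 CPM with METTL3 and at 193, 144 and 163 CPM with the vector. METTL3 replicate 1 was the lowest and vector replicate 1 the highest library for both genes, with interactions of -0.92 (SE 0.0875, adjusted p = 2.24e-05 from edgeR) for CCNB1 and -0.93 (SE 0.117, adjusted p = 0.00011 from edgeR) for CDK1. CDC25C, a phosphatase that activates CDK1, was at 26, 34.2 and 35.3 CPM with METTL3 and at 51.8, 36.2 and 35.9 CPM with the vector, with the same extremes and no overlap of the groups (interaction -0.94, SE 0.102, adjusted p = 4.91e-05 from edgeR). CCNA2, cyclin A2, was at 77.1, 120 and 120 CPM with METTL3 and at 115, 110 and 110 CPM with the vector. Here the METTL3 library alone departed as scaled by TMM, with a METTL3 shift of -0.64 (SE 0.0633) and a vector shift of 0.07 (SE 0.0614). The CCNA2 vector shift was called lower with the trend of GC content and length removed (-0.18, SE 0.0514, adjusted p = 0.0108 from edgeR).

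The kinesins and kinetochore genes included the largest METTL3 shift of the 50 genes, that of CENPE. CENPE, the kinetochore motor that moves chromosomes to the spindle equator, was at 58, 127 and 126 CPM with METTL3 and at 125, 121 and 121 CPM with the vector. Replicate 1 with METTL3 was below every other library by more than the whole range of the other 5, and the interaction was -1.18 (SE 0.0876, adjusted p = 7.43e-06 from edgeR). KIF20A, a kinesin of the central spindle, was at 104, 176 and 173 CPM with METTL3 and at 195, 159 and 165 CPM with the vector (interaction -1.0, SE 0.0882, adjusted p = 1.63e-05 from edgeR). CENPF, another kinetochore protein, was at 213, 278 and 238 CPM with METTL3 and at 285, 235 and 224 CPM with the vector, with a wider spread between replicates 2 and 3 (interaction -0.58, SE 0.116, adjusted p = 0.00222 from edgeR). Proteins of chromatin were also low in METTL3 replicate 1. TOP2A was at 727, 1150 and 1130 CPM with METTL3 and at 1180, 1120 and 1170 CPM with the vector, so METTL3 replicate 1 was the lowest library and the other 5 lay close together (interaction -0.69, SE 0.0836, adjusted p = 8.2e-05 from edgeR). HMGB2, a DNA-bending protein, was at 101, 148 and 161 CPM with METTL3 and at 198, 152 and 165 CPM with the vector (interaction -0.94, SE 0.104, adjusted p = 5.53e-05 from edgeR).

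As scaled by TMM, the mitotic kinases were divided. AURKA, a kinase of the spindle poles, was at 168, 255 and 266 CPM with METTL3 and at 284, 254 and 263 CPM with the vector, with an interaction of -0.77 (SE 0.0884, adjusted p = 6.81e-05 from edgeR). PLK1, which acts from mitotic entry to cytokinesis, was at 156, 211 and 211 CPM with METTL3 and at 143, 186 and 183 CPM with the vector. Both replicate 1 libraries of PLK1 were low, by -0.43 (SE 0.0614) and -0.37 (SE 0.0614), and the interaction of -0.07 (SE 0.0855) did not pass. The PLK1 interaction was called lower with the trend of GC content and length removed (-0.40, SE 0.0726, adjusted p = 0.000699 from edgeR). AURKB, the kinase of the chromosomal passenger complex, was at 51.1, 85.2 and 90.1 CPM with METTL3 and at 57.6, 88.2 and 93.3 CPM with the vector, and it also fell in both replicate 1 libraries, with shifts of -0.78 (SE 0.0718) and -0.66 (SE 0.0715). BIRC5, survivin of the same complex, was at 187, 218 and 232 CPM with METTL3 and at 240, 211 and 218 CPM with the vector (interaction -0.43, SE 0.0911, adjusted p = 0.00292 from edgeR). CDC25B, a phosphatase of mitotic entry, was at 183, 237 and 233 CPM with METTL3 and at 125, 195 and 190 CPM with the vector, so replicate 1 was low in each group and vector replicate 1 was the lowest library.

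The transcription factors of the mitotic wave were low in both replicate 1 libraries. FOXM1 was at 85.9, 141 and 136 CPM with METTL3 and at 68.5, 126 and 122 CPM with the vector. Both replicate 1 libraries lay far below the others, with shifts of -0.69 (SE 0.0659) and -0.86 (SE 0.0668), and the interaction was 0.17 (SE 0.091, adjusted p = 0.202 from edgeR). MYBL2 was at 160, 192 and 190 CPM with METTL3 and at 164, 204 and 198 CPM with the vector, again with replicate 1 the lowest of each group (shifts of -0.26, SE 0.0616, and -0.29, SE 0.0618). With the trend of GC content and length removed the vector shift of MYBL2 was no longer called (-0.10, SE 0.0512, adjusted p = 0.142 from edgeR). In the same vector library, where FOXM1 and MYBL2 were low, the mitotic CHR genes CCNB1, CCNB2, PTTG1 and CKS2 were called higher. Their vector shifts were 0.43, 0.39, 0.29 and 0.44. CDK1, CDC25C, CENPF, KIF20A, KIF23 and CKS1B also hold a CHR and were called higher, by 0.21 (KIF23) to 0.54 (CKS1B). The mitotic CHR genes called lower were CDC25B, PLK1, CDC20 and CENPA, with vector shifts of -0.63, -0.37, -0.30 and -0.22. With the trend of GC content and length removed, CCNB2 was still called higher (0.14, SE 0.0513, adjusted p = 0.0394 from edgeR). So were CDC25C (0.283), CENPF (0.39) and KIF20A (0.175), and the others called higher before were not. MKI67, which also holds a CHR, was called higher in that setting and not before (0.499). CDC25B, CDC20 and CENPA were still called lower, and PLK1 was not.

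Of the genes of mitotic exit, PTTG1 (securin, which restrains the protease that parts sister chromatids) was at 103, 149 and 156 CPM with METTL3 and at 200, 153 and 173 CPM with the vector, with an interaction of -0.86 (SE 0.107, adjusted p = 9.54e-05 from edgeR). UBE2C, an E2 enzyme of the anaphase-promoting complex, was at 112, 165 and 184 CPM with METTL3 and at 184, 162 and 189 CPM with the vector, with METTL3 replicate 1 the lowest. Its vector shift was called lower with the trend of GC content and length removed (-0.23, SE 0.0686, adjusted p = 0.0145 from edgeR). CDC20, an activator of the complex, was at 212, 339 and 341 CPM with METTL3 and at 269, 323 and 338 CPM with the vector. Both CDC20 shifts were called lower, by -0.68 (SE 0.0631) and -0.30 (SE 0.062), with an interaction of -0.39 (SE 0.0867, adjusted p = 0.00447 from edgeR). CKS1B, a CDK-binding subunit, was at 91.6, 107 and 118 CPM with METTL3 and at 173, 119 and 118 CPM with the vector, and its high value was in vector replicate 1. MKI67, the proliferation antigen Ki-67, was at 457, 489 and 381 CPM with METTL3 and at 432, 368 and 331 CPM with the vector. Its replicate 1 lay between replicates 2 and 3 with METTL3 and was the highest with the vector, and none of its contrasts passed. With the trend of GC content and length removed its interaction did (-0.59, SE 0.107, adjusted p = 0.00116 from edgeR). So did its vector shift (0.50, SE 0.0742, adjusted p = 0.000149 from edgeR). Its group difference in replicates 2 and 3 passed as well (0.31, adjusted p = 0.00238 from edgeR).

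In replicates 2 and 3 of each group, without the libraries that stood apart, cell cycle genes that passed the test were higher with METTL3, by small amounts. EdgeR's quasi-likelihood test of 2 against 2 libraries called 3362 of 22046 genes (15.2%), 6.66% higher and 8.59% lower. Of the replication genes 4 of 20 were called higher and 0 lower, with a median log2 difference of 0.10, and of the mitotic genes 2 of 30 were called higher and 0 lower, with a median of 0.03. These shares of higher calls, 4 of 20 and 2 of 30, stand beside 6.66% of all genes, so the mitotic count is near the background. MCM5 had the smallest p, with 273 and 265 CPM with METTL3 against 222 and 217 CPM with the vector, a log2 difference of 0.29 (SE 0.051, adjusted p = 0.00122 from edgeR). In replicate 1 it was at 260 against 223 CPM, and over all 6 libraries the difference was 0.27 (SE 0.103, adjusted p = 0.565 from edgeR) with no overlap of the groups. E2F2 was the other gene of the 50 whose METTL3 values were all above the vector values, which held for 8.47% of all genes, and RRM1 and CDC25C had METTL3 values all below, which held for 8.93%.

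PCNA was at 264 and 283 CPM with METTL3 against 214 and 239 CPM in replicates 2 and 3, a log2 difference of 0.27 (SE 0.0621, adjusted p = 0.00836 from edgeR). CDC25A had 0.28 (SE 0.0652, adjusted p = 0.00917 from edgeR), and TK1, thymidine kinase 1, at 234 and 238 against 212 and 199 CPM, had 0.20 (SE 0.0525, adjusted p = 0.0202 from edgeR). For PCNA, CDC25A and TK1 the vector library of replicate 1 lay above the METTL3 library of replicate 1, so the groups stood in the reverse order there. The mitotic genes called were CDC25B, with 0.29 (SE 0.0506, adjusted p = 0.00134 from edgeR), and PLK1, with 0.19 (SE 0.0503, adjusted p = 0.0178 from edgeR), and METTL3 replicate 1 was above vector replicate 1 for both. With the replicate number as a block, 8 replication and 6 mitotic genes were called higher, beside 11.3% of all genes. With the trend of GC content and length removed, 10 replication and 7 mitotic genes were called higher and 1 mitotic gene lower. These were among 4705 genes (21.4%), of which 2690 (12.2%) were higher and 2015 lower in place of 1469 and 1893. PTTG1 was the gene of the 50 called lower there (-0.13, adjusted p = 0.0475 from edgeR). The 3 genes with the smallest p over all 6 libraries were MCM5, CKS1B and PTTG1, and the last 2 had -0.37 each (SE 0.177 and 0.18, adjusted p = 0.619 and 0.622 from edgeR).

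The shifts of the 50 genes varied with the GC content of their transcripts. Across the 50 genes, which share the same 6 libraries, Pearson's r of GC content with the METTL3 shift was 0.40 (Spearman's rho 0.41), with the vector shift -0.49 (rho -0.42), and with the interaction 0.71 (rho 0.70). Over all genes the same r values were 0.055, -0.21 and 0.23. The genes low in vector replicate 1 were mostly GC-rich, such as FOXM1 (55.7%), PLK1 (57.1%), CDC25B (59.1%), MYBL2 (60.5%) and E2F1 (61.6%), and many that were high had a lower GC content, such as CDK1 (37.0%), CCNB1 (41.9%), CDC6 (44.8%) and PCNA (45.2%). Some went the other way, since TK1 (62.8%) and MCM7 (57.6%) were called higher there, and RRM2 (45.8%) and CENPA (47.2%) lower. With the trend of each library over GC content and transcript length taken out, the METTL3 shift was called lower in 16 of 20 replication and 28 of 30 mitotic genes, against 22.5% of all genes, with medians of -0.29 and -0.60.

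The vector shift depended on this correction in the mitotic genes. After it, 19.9% of all genes were called higher and 18.4% lower, replication genes had 11 higher and 3 lower with a median of 0.26, and mitotic genes had 5 higher and 7 lower with a median of -0.07, so the mitotic median turned direction. CCNB1 then had a vector shift of 0.07 (SE 0.0501, adjusted p = 0.274 from edgeR) and CDK1 one of -0.05 (SE 0.0591, adjusted p = 0.554 from edgeR), whereas PCNA kept 0.49 (SE 0.0539, adjusted p = 3.44e-06 from edgeR) and CDC25A had 0.50 (SE 0.0724, adjusted p = 5.36e-05 from edgeR). FOXM1 (-0.69, SE 0.0542) and AURKB (-0.78, SE 0.059) stayed low in vector replicate 1. By the same edgeR test, 4 genes called lower before were no longer called, which were MYBL2 (-0.10, adjusted p = 0.142), PLK1 (-0.09, adjusted p = 0.177), E2F1 (-0.11, adjusted p = 0.162) and CDT1 (-0.01, adjusted p = 0.885). The interaction was called lower in 15 of 20 replication and 25 of 30 mitotic genes, against 18.1% of all genes, where 3970 genes were lower and 2061 (9.37%) higher. Whether GC content acts in these libraries apart from the genes' roles was not tested.

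**Figure D5:**
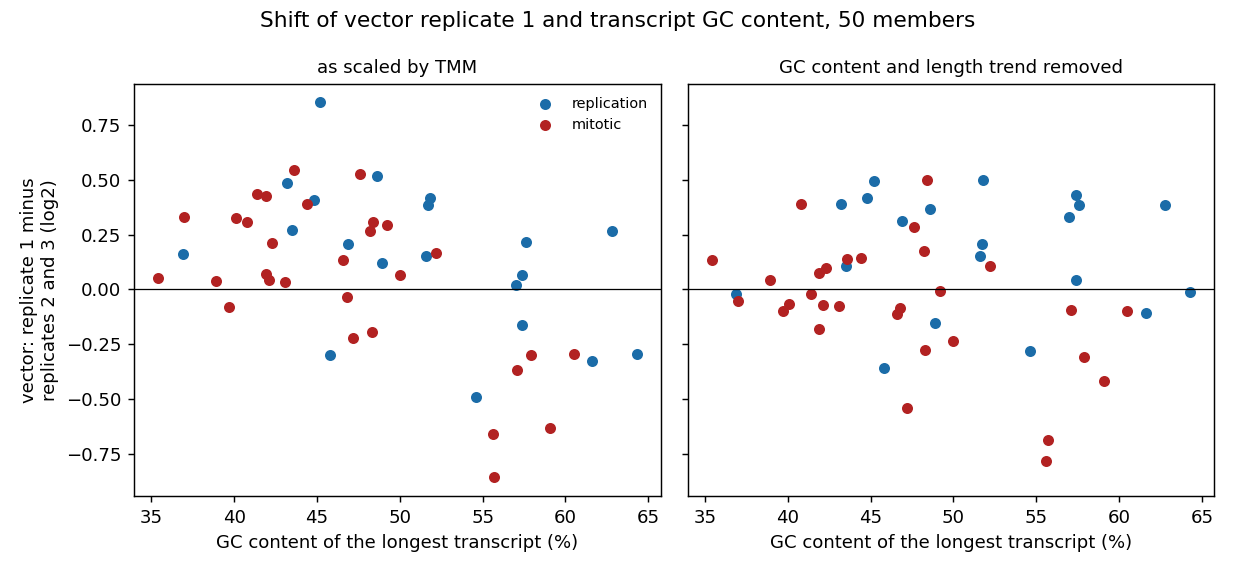
Vector shift of replicate 1 (log2, vertical axis) against the GC content of the longest transcript (percent, horizontal axis) for the 50 genes, as scaled by TMM on the left and with the trend of GC content and length removed on the right. On the left the shift falls with GC content (r of -0.49), and on the right the median of the mitotic genes is -0.07 and that of the replication genes is 0.26.

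Other genes of the same processes, from lists that hold none of the 50, were also low in METTL3 replicate 1. Of 52 other mitotic genes, 50 were called lower in METTL3 replicate 1 and 0 higher, beside 15% and 11.8% of all genes. PRC1 and CENPM were the others, and the median shift was -0.56. The interaction of these 52 genes was called lower in 41 and higher in 1 (INCENP), with a median of -0.62. Over all genes, 15.5% had a lower and 14.7% a higher interaction. HMMR, a spindle-associated protein, was at 102, 182 and 180 CPM with METTL3 and at 214, 165 and 169 CPM with the vector, and ANLN, anillin of the contractile ring, was at 368, 630 and 602 CPM with METTL3 and at 607, 495 and 497 CPM with the vector. Of 46 other replication genes, 33 were called lower in METTL3 replicate 1 and 0 higher, with a median shift of -0.29. Their interaction was called lower in 35 and higher in 1 (POLE, the catalytic subunit of polymerase epsilon), with a median of -0.60. In vector replicate 1, 26 of them were called higher and 5 lower, beside 21.1% and 20.5% of all genes. RFC3, a subunit of the clamp loader of PCNA, was at 59.6, 83.9 and 88.4 CPM with METTL3 and at 103, 78.1 and 84.7 CPM with the vector.

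Lists of their regulators held called interactions in both directions, beside 15.5% of all genes called lower and 14.7% called higher. Of 18 genes of the anaphase-promoting complex and SCF ligases, 13 had a lower and 1 a higher interaction, with a median of -0.37, and CDC26, a small subunit of the former, had -1.04 (SE 0.154, adjusted p = 0.000292 from edgeR). Of 9 G1 cyclins and kinases tested, 5 were lower and 2 higher. CDK4, among those lower, was at 65.4, 84.1 and 81.9 CPM with METTL3 and at 97.6, 84.4 and 83.6 CPM with the vector. The 2 called higher, CCND1 and CDK6, were low in both replicate 1 libraries. CCND1 was at 498, 669 and 649 CPM with METTL3 and at 378, 721 and 701 CPM with the vector (interaction 0.51, SE 0.0847, adjusted p = 0.000647 from edgeR). Of 18 RB, E2F and DREAM regulators, 4 were lower and 2 higher, counts near the background, E2F8, a repressing E2F, being lower (-0.71, SE 0.0991, adjusted p = 0.000191 from edgeR). Of 6 CDK inhibitors tested, 1 was lower, CDKN3 (-0.87, SE 0.105, adjusted p = 8.04e-05 from edgeR), which is itself a cell cycle-regulated phosphatase, and 1 was higher, CDKN1C (0.54, SE 0.161, adjusted p = 0.0223 from edgeR), also near the background. CDKN1A, the p21 inhibitor, was at 20.9, 19.3 and 18.9 CPM with METTL3 and at 22.2, 25.3 and 23.8 CPM with the vector, and CDKN2A and CDKN2B were below 1 CPM in every library.

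Other measures also set the replicate 1 libraries apart, and their part in the cell cycle values was not tested. The summed level of 23 RNAs without a poly(A) tail was 162, 75.8 and 66.5 CPM with METTL3 and 212, 67.2 and 60.8 CPM with the vector, so it was high in both replicate 1 libraries and did not have opposite directions. Epithelial markers summed to 8770, 7970 and 7780 CPM with METTL3 and 9740, 6350 and 6250 CPM with the vector, also higher in each replicate 1. Fibroblast markers summed to between 17.7 and 20.2 CPM with METTL3 and to 9.44, 20.5 and 20.2 CPM with the vector, nearly all of it COL1A1. Leukocyte markers summed to 47.9, 37.2 and 35.9 CPM with METTL3 and 44.5, 64.2 and 60.9 CPM with the vector, nearly all of it LYZ and CD14, while PTPRC, which marks all leukocytes, was below 1 CPM in every library. Endothelial markers summed to 23.3, 11 and 9.10 CPM with METTL3 and 8.73, 7.26 and 6.02 CPM with the vector. Most of it was PECAM1, at 21.4, 9.29 and 7.45 CPM with METTL3 and at 7.74, 5.71 and 4.67 CPM with the vector. CLDN5 reached 1 CPM in some libraries, and CDH5, VWF, KDR and TEK were below 1 CPM in every library.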

How the data were processed

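Poly(A)-selected RNA of OVCAR5 cells was sequenced in 3 METTL3 and 3 vector libraries. According to the submitters' processing notes, which name fastp, HISAT2, featureCounts of Subread and GRCh38 (hg38), the authors aligned the reads and counted them per gene, and they deposited these raw counts for 60649 genes, without normalization. Versions, the annotation release and the strand setting are not given in the sources used here. Even values made up from 67.6% to 70.5% of the counts between 1 and 20, a sign that both mates may have been counted, and an alternative therefore divided the counts by 2. All columns were mapped to samples by name. GENCODE release 44 named 60507 genes.

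In R 4.3.3, the 22038 genes passing filterByExpr of edgeR 4.0.16 were scaled by TMM and tested by quasi-likelihood (glmQLFTest after a robust glmQLFit), with p-values adjusted over all genes by Benjamini-Hochberg and a threshold of 0.05. Models were the group on 6 libraries, the group in replicates 2 and 3, and group, replicate 1 and their interaction. Standard errors are the size of the log2 value over the square root of F. CPM used TMM-scaled totals, and TPM the longest transcript. GC content and length trends were removed with natural splines of 5 degrees of freedom each, as offsets. DESeq2 1.42.0, which the study used, was an alternative. On simulated counts with 200 genes changed 2-fold, the group test recovered 44.6% of the changed genes among 21572 tested, with 8.42% of calls unchanged genes, and the interaction test 55.8% among 21529, with 13.4%.

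The cell cycle genes and all other lists were chosen with earlier results of these data known, as was the choice of replicate 1. Values in every library are given for METTL3, for 25 core genes, for the genes of each phase list with the 4 largest and 2 smallest interactions, and for the 3 smallest p of each group comparison; other genes were named after their values were seen. The replicate numbers are shared by the groups. Deviations from the group mean correlated at 0.33 between the replicate 1 libraries, at 0.12 between replicates 2 and at 0.17 between replicates 3, all above 0.1, the limit set for pairing. The models above hold no block, and a fit with the replicate number as a term was run as an alternative. The pairing comes from the values alone, and libraries with different numbers reached 0.21 and 0.13.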

Additional observations from a re-analysis of the deposited data

Results flagged for a closer look

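The replicate 1 libraries moved differently in the 2 groups, by edgeR's test of the interaction of group and replicate 1. This difference between groups was called for 14 of 20 replication genes and 24 of 30 mitotic genes, and for 36 of 46 other replication genes and 42 of 52 other mitotic genes, beside 30.2% of all genes tested. The replication genes with the largest differences, as the METTL3 shift minus the vector shift on the log2 scale, were PCNA (-1.0), CDC25A (-0.76), GINS2 (-0.71) and RRM1 (-0.69). The mitotic genes with the largest differences were CENPE (-1.18), KIF20A (-1.0), CDC25C (-0.94) and HMGB2 (-0.94). Each rests on 1 library of each group set against the other 2, and whether the cultures or the library preparation differed was not tested.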

How the results depend on the processing

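Calls of METTL3 against vector on all 6 libraries depended on the tool, the filter and the libraries. The 0 genes called became 283 with DESeq2, 560 without a filter on low counts, 1 with the trend of GC content and length removed, 6 with that and the replicate block, and from 0 to 367 with 1 library left out, 367 being without vector replicate 1. None of these called a cell cycle gene. The replicate block alone called 0 genes and changed no other call on 6 libraries. Medians turned to 0.0724 (replication) and 0.0336 (mitotic) without METTL3 replicate 1, and to 0.0245 (replication) without vector replicate 1, and over the 6 left-out libraries they ranged from -0.0573 to 0.0724 and from -0.231 to 0.0336.

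In replicates 2 and 3 of each group, 3362 genes, 4 replication and 2 mitotic genes were called and the medians turned to 0.095 and 0.0309. Alternatives of this comparison were chosen after seeing the data. With GC content and length trends removed, 4705 genes, 10 replication and 8 mitotic genes were called, with medians of 0.13 and 0.0504. With the replicate block as a term, 5450 genes, 8 replication and 6 mitotic genes were called. Without a filter 5 mitotic genes were called, with 1 library left out from 1 to 4, and at an adjusted p under 0.01 1957 genes and 1 mitotic gene.

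The interaction kept its direction in both gene groups under every alternative run, and at an adjusted p under 0.01 it called 4365 genes. CDC25B turned to -0.0305 with GC content and length trends removed. Under that setting the vector shift of mitotic genes had 5 called higher and a median of -0.0682. Summed CPM of METTL3 replicate 1 over the mean of replicates 2 and 3 was 0.849 for replication and 0.707 for mitotic genes, and for vector replicate 1 it was 1.13 and 1.05. From total counts these were 0.886 and 0.738 with METTL3 and 1.11 for replication with the vector, and with DESeq2 size factors 0.841 for replication with METTL3 and 1.09 and 1.02 with the vector. In a window from 100 bases before the start, 8.33% of the matched mitotic genes had an E2F site. Where no cause is named, the cause was not tested. NUSAP1 was under 1 CPM in every library, and its interaction had a standard error of 0.493.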
